A study of Mus musculus with 12 samples.

Results

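Fibroblasts that had spent 4 days on the way to induced pluripotency were compared with the fibroblasts they came from, in cells that kept both copies of AF10. The libraries were taken by title: Day4_fl_DMSO, replicates 1 and 2, against MEF_fl, replicates 1 and 2, which are 4 of the 12 libraries of the series. All of these mouse embryonic fibroblasts (MEFs) carried floxed alleles of AF10 (AF10 fl/fl, the gene Mllt10), an OSKM cassette and rtTA, the regulator that switches the cassette on in doxycycline. The fl cells had received an empty adenovirus (Ad5-CMV-Empty), so AF10, a partner of the histone methyltransferase DOT1L, was not deleted. The 8 other libraries are AF10-deleted MEFs, and day 4 cells with AF10 deleted, under the DOT1L inhibitor SGC0946, or both.

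The MEF_fl cells were in MEF medium without doxycycline, and the labels give no time between the virus and their harvest; doxycycline was added to the others 2 days after the virus. The Day4_fl_DMSO cells had been in 2 µg/mL doxycycline with DMSO for 4 days, in a medium for embryonic stem cells that held the cytokine LIF (leukemia inhibitory factor), and DR4 feeder MEFs lay under them on the gelatin. The effects of the factors, the medium, LIF, the feeder cells and the time since the virus cannot be told apart in this comparison. RNA of feeder cells, if any was harvested with the day 4 cells, is counted with theirs. In bulk RNA, fewer cells of a type and less RNA per cell also cannot be told apart.

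Reprogramming is driven by the transcription factors Pou5f1 (Oct4), Sox2, Klf4 and Myc. In fibroblasts they first raise proliferation, shut down the mesenchymal program and switch on epithelial genes, while the core pluripotency network comes on late and in few cells. Fibroblasts in culture also make large amounts of collagen matrix, and they answer viruses and nucleic acids with interferon, which acts through a complex of transcription factors on a common promoter element.

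The expected counts summed to 18711382 and 17477675 in MEF_fl replicates 1 and 2 and to 16834238 and 21109210 in Day4_fl_DMSO. Levels are given as CPM, the usual counts-per-library-size unit, after scaling by edgeR's TMM factor, for replicates 1 and 2 in that order. A change is the fitted log2 difference, day 4 minus MEF, with its standard error (SE, n = 2 per group). The SE was taken as the size of the change divided by the square root of the test's F value. The words "rose" or "fell" mean a Benjamini-Hochberg adjusted p under 0.05 in edgeR's quasi-likelihood test over the 13936 genes kept. Between the stages 3588 genes rose (25.7% of those tested) and 3659 fell (26.3%). By more than 2-fold, 1206 rose (8.65%) and 1693 fell (12.1%). Of all calls 49.5% were rises. Scaling to total counts alone shifted the median of all genes by 0.16 and made 63.9% of the calls rises, and upper quartile scaling made 55.9%. The median over all genes was 0.01, and 85% of genes had the same sign within both replicate numbers.

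The labels do not say what the replicate numbers stand for. Y-linked genes had 4778 and 4780 counts in the replicate 1 libraries and 18 and 52 in the replicate 2 libraries. The p-values rest on the spread between the 2 libraries of each of the 6 groups, estimated together over all 12 libraries and partly shared across genes. The labels tie these libraries to no animal or culture. With the 4 libraries alone 2996 genes rose and 3053 fell. With the replicate number as a block 4067 genes rose (29.2%) and 4206 fell (30.2%).

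The 4 factors did not behave alike. Pou5f1 had 0.948 and 0.728 CPM in MEF_fl and 127 and 140 CPM on day 4, a change of 7.31 ± 0.27 (edgeR adjusted p = 1.78e-07). Sox2 went from 8.54 and 5.58 CPM to 113 and 102 CPM, and Myc from 18.6 and 14.1 CPM to 344 and 311 CPM, changes of 3.93 ± 0.22 and 4.32 ± 0.18. For these 3 genes both day 4 libraries lay above both MEF libraries. Klf4 was already at 208 and 165 CPM in MEF_fl, had 198 and 215 CPM on day 4 and overlapped between the stages (0.15 ± 0.15, edgeR adjusted p = 0.426, and -0.01 without MEF_fl replicate 2). Reads of the cassette and of the cells' own genes are counted together where their sequence is the same, so these levels do not separate the 2 sources. The 4 genes together held 0.0173% and 0.014% of the TPM total in MEF_fl and 0.0717% and 0.0737% on day 4, where TPM is a count per transcript length scaled to a common sum.

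**Figure D1:**
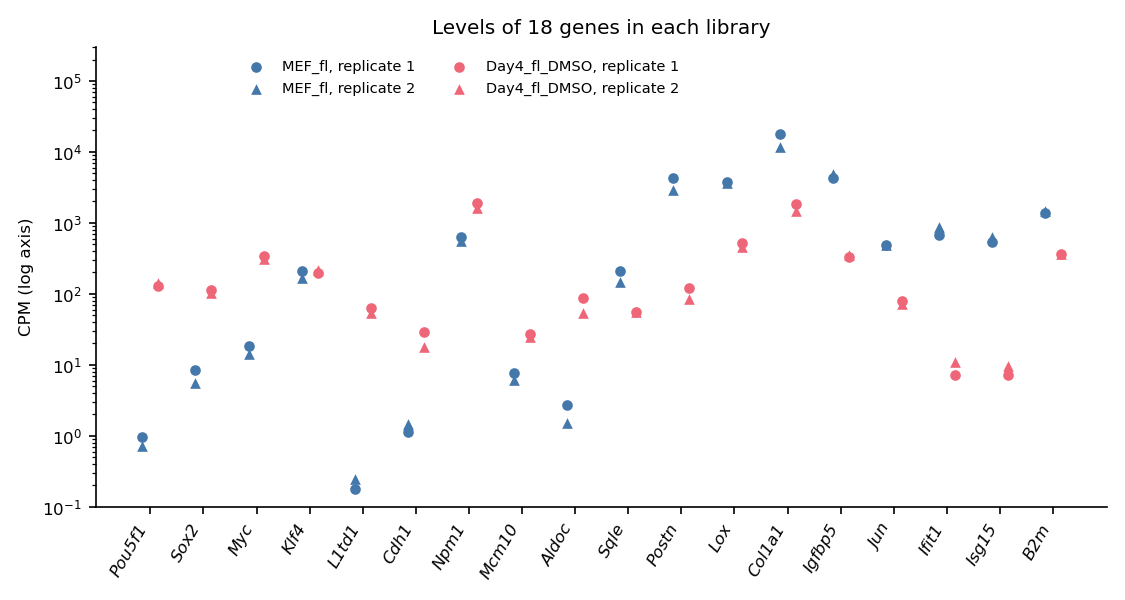
Levels of 18 genes in CPM on a log axis, 1 point per library, blue for MEF_fl and red for Day4_fl_DMSO, circles for replicate 1 and triangles for replicate 2. Only Klf4 overlaps between the stages, and Ifit1 drops from 677 and 861 CPM to 7.18 and 11.1 CPM.

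The pluripotency program on day 4 was a short list of early genes. Of 20 genes listed as early, 13 passed the filter on low counts, and of these 10 rose and 1 fell, with a median of 2.00. L1td1, which binds RNA in stem cells and early embryos, rose from 0.178 and 0.243 CPM to 62.4 and 53.1 CPM (8.06 ± 0.22, edgeR adjusted p = 2.07e-08). Fgf4, the growth factor that the Oct4 and Sox2 pair is known to switch on, had 1 count in MEF_fl in all and 499 on day 4, a ratio of 424 with a 95% counting interval of 75.8 to 16791. Both day 4 libraries had it, at 10.1 and 14.9 CPM. Fbxo15, a classical reporter gene of reprogramming, went from 0.178 and 0.364 CPM to 11.1 and 6.01 CPM. Fut9, which makes the sugar epitope SSEA-1 that marks cells under way to pluripotency, stayed low, at 0.237 and 0.182 CPM before and 1.44 and 1.74 CPM after (2.88 ± 0.42).

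The early genes below the filter were scarcely read at all. Sall4, Lin28a, Lin28b, Otx2, Utf1, Tdgf1 and Dnmt3l did not pass the filter, and the highest of them on day 4, Lin28b, had 2 and 3 counts. Jarid2, a Polycomb partner of stem cells, was the gene that fell (-0.43 ± 0.16, edgeR adjusted p = 0.043), and its call was lost without MEF_fl replicate 2, at -0.23, and without either day 4 library.

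Late pluripotency genes gave a mixed picture. Of 23 listed, 13 were below the filter, among them Esrrb, Zfp42, Dppa4 and Prdm14, each with at most 1 count in any library. Of the 10 tested, 4 rose (40.0%) and 3 fell (30.0%), against 25.7% and 26.3% of all genes. Tdh, a threonine dehydrogenase on which mouse stem cells depend, had 2 counts in MEF_fl and 795 on day 4 (ratio 338, 95% counting interval 93.3 to 2796), or 18.4 and 21.8 CPM in the day 4 libraries. Nodal, a TGF-beta family ligand, had 0 counts in MEF_fl and 37 on day 4, at least 10.5-fold higher than the floor of 3 counts over the group. With Nodal at that bound the median of the list was 0.68, as without it. Gdf3, a further ligand of that family, reached 0.747 and 1.05 CPM.

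Some genes of the naive pluripotent state went down instead. Klf2, a naive pluripotency factor that fibroblasts also express, fell from 79.7 and 87.0 CPM to 3.91 and 4.63 CPM (-4.28 ± 0.16, edgeR adjusted p = 9.84e-08). Tet1, a 5-methylcytosine oxidase, fell from 30.4 and 22.2 CPM to 11.1 and 12.1 CPM. Nanog, the core naive factor, had 0 and 0.485 CPM in MEF_fl and 0.977 and 0.55 CPM on day 4, and its change of 1.62 did not pass the test (edgeR adjusted p = 0.398).

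Genes near the LIF receptor and its transcription factor STAT3 were also listed, since LIF was only in the day 4 medium. Of 10 tested 5 rose and 1 fell, with a median of 0.81. For comparison, 25.7% of all genes rose and 26.3% fell. The feedback inhibitor Socs3 rose from 85.8 and 92.0 CPM to 188 and 185 CPM (1.07 ± 0.10), and the kinase gene Pim3 rose from 20.5 and 25.5 CPM to 72.0 and 85.7 CPM. The shared receptor subunit Il6st fell from 801 and 677 CPM to 498 and 480 CPM.

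Among all genes, the largest rises included several with no known part in fibroblasts. Insm1, a zinc finger factor of neuroendocrine cells, had 2 counts in MEF_fl and 1007 on day 4 (ratio 428, 95% counting interval 118 to 3540). Aldh3a1, an aldehyde dehydrogenase of the cornea, went from 2.37 and 1.58 CPM to 345 and 371 CPM (7.5 ± 0.17, edgeR adjusted p = 1.13e-08). Acsbg1, an acyl-CoA synthetase of brain, adrenal gland and testis, rose from 1.07 and 0.667 CPM to 101 and 125 CPM. Shisa3 rose from 0.356 and 0.485 CPM to 31.6 and 58.9 CPM, and Pitpnm3 from 0.889 and 1.15 CPM to 73.8 and 85.9 CPM. All 5 had both day 4 libraries above both MEF libraries, but the rule that picked the largest changes required such separation. It also required a mean of 10 CPM or more in the higher group. Ceacam1, an adhesion molecule of epithelia, had 0.356 and 0 CPM before and 44.5 and 61.1 CPM after (8.14, and 12.83 or 7.19 without MEF_fl replicate 1 or 2). In all, 158 genes rose and 166 fell by more than 16-fold. Under 1 CPM in both MEF libraries and at 10 CPM or more in both day 4 libraries were 25 genes, and 15 showed the reverse.

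Epithelial genes began to appear at low levels. Of 32 listed, 21 passed the filter. Among these 11 rose (52.4%) and 2 fell (9.52%), against 25.7% and 26.3% of all genes. The other 8 were not called, and the median was 1.55. Cdh1, the epithelial cadherin, rose from 1.13 and 1.46 CPM to 28.8 and 18 CPM (4.17 ± 0.39, edgeR adjusted p = 5.07e-05). Dsp, the desmosome plakin, went from 9.66 and 8.37 CPM to 36.7 and 73.0 CPM, and the simple keratin Krt19 from 10.9 and 8.07 CPM to 31.9 and 48.0 CPM. The Ets factor Ehf, which is typical of glandular epithelia, had 1 count in MEF_fl and 465 on day 4 (ratio 395, 95% counting interval 70.6 to 15650). Spint1, an inhibitor of membrane serine proteases, had 2 counts before and 164 after (ratio 69.7, interval 19 to 581), and the claudin Cldn3 had 2 and 84 (ratio 35.7, interval 9.58 to 300). Elf3, a further epithelial Ets factor, had 0 counts in MEF_fl and 37 on day 4, at least 10.5-fold above the floor, and with it at that bound the list median was again 1.55.

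Those that fell did so from low levels, and 0 fell without MEF_fl replicate 1 or without either day 4 library. Dsg2, a desmoglein, had at most 0.534 CPM in any library and lost its call without any 1 of the 4. The list sum was 42.3 and 33.4 CPM in MEF_fl and 140 and 177 CPM on day 4. Of 5 keratinocyte genes tested 1 rose (20.0%), 1 fell (20.0%) and 3 were not called, with a median of -2.47. Among all genes 25.7% rose and 26.3% fell. With the replicate block 1 keratinocyte gene rose and 3 fell. Trp63, the master factor of basal epithelium, rose from 3.56 and 7.16 CPM to 20.2 and 20.3 CPM. The keratin Krt15 fell, from 0.415 and 2.25 CPM to 0.115 and 0.275 CPM (-2.68 ± 0.86, edgeR adjusted p = 0.0255), and its call was lost without MEF_fl replicate 2 (-1.01) and without Day4_fl_DMSO replicate 1 (-2.24) or 2 (-3.43). Krt5, Krt6a, Krt17, Lor, Ivl, Dsg3 and Krtdap of the same list were below the filter.

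Mesenchymal transcription factors mostly fell, but not all of those that hold the mesenchymal state did. Of 36 tested, 20 fell and 2 rose, with a median of -0.96. Snai1, an inducer of the epithelial to mesenchymal transition, fell from 51.8 and 71.7 CPM to 13.1 and 16.7 CPM (-2.05 ± 0.21, edgeR adjusted p = 5.26e-05). Zeb2 fell from 140 and 123 CPM to 41.0 and 37.9 CPM, and Twist1 from 140 and 191 CPM to 86.5 and 76.2 CPM. Zeb1, the relative of Zeb2, had 160 and 150 CPM before and 127 and 141 CPM after. That change of -0.21 ± 0.087 was not called (edgeR adjusted p = 0.0707, and 0.0392 with the replicate block). The homeobox gene Meox1 fell from 7.35 and 5.76 CPM to 0.574 and 0.642 CPM, whereas Meox2 rose from 20.0 and 17.5 CPM to 47.7 and 31.1 CPM, and Tcf4 from 241 and 219 CPM to 325 and 339 CPM.

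Collagen transcripts fell to a fraction of their share of the RNA. Of 22 collagen genes tested 18 fell and 1 rose, with a median of -1.87. Together they held 2.80% and 2.04% of the TPM total in MEF_fl and 0.543% and 0.509% on day 4. Col1a1, a chain of type I collagen, fell from 17604 and 11779 CPM to 1847 and 1483 CPM (-3.14 ± 0.25, edgeR adjusted p = 1.07e-05), and no gene that passed the test lost more TPM (8041 and 5553 before, 795 and 662 after). The type VIII chain Col8a2 fell from 102 and 93.0 CPM to 1.38 and 2.02 CPM, and Col14a1 from 174 and 99.6 CPM to 2.24 and 3.35 CPM. Col15a1, a basement membrane collagen, was the gene that rose, from 43.5 and 31.4 CPM to 113 and 83.0 CPM.

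The enzymes that build collagen fell with it. Of 26 genes for collagen folding, processing and cross-linking 23 fell and 1 rose (2 rose without MEF_fl replicate 2). The cross-linking enzyme Lox fell from 3747 and 3605 CPM to 516 and 457 CPM (-2.92 ± 0.12), the procollagen peptidase Adamts2 from 190 and 155 CPM to 38.8 and 39.3 CPM, and Creb3l1, a factor that drives collagen secretion, from 123 and 70.5 CPM to 16.6 and 15.4 CPM. Loxl3, a member of the same enzyme family as Lox, rose from 149 and 162 CPM to 264 and 291 CPM.

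Other matrix and surface proteins of fibroblasts followed: of 35 tested, 26 fell and 3 rose. Postn, a matricellular protein, fell from 4337 and 2929 CPM to 120 and 85.1 CPM (-5.14 ± 0.36, edgeR adjusted p = 9.46e-06). Dpt, Mfap4 and Eln, which encode dermatopontin, a microfibril protein and elastin, were much higher in MEF_fl replicate 1 than in replicate 2. Eln had 1717 and 505 CPM there and 100 and 99.3 CPM on day 4, and its change of -3.48 became -2.34 without MEF_fl replicate 1 and -4.11 without replicate 2. Dpt had 252 and 59.0 CPM before and 4.71 and 4.95 CPM after, and its change went from -5.01 to -3.61 without replicate 1 and to -5.70 without replicate 2. Mfap4, with 791 and 263 CPM before and 39.5 and 20.5 CPM after, went from -4.14 to -3.14 and to -4.73. All 3 stayed called.

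The fall did not extend to every fibroblast gene. Vim, the mesenchymal intermediate filament, rose from 4347 and 5272 CPM to 8686 and 8081 CPM (0.80 ± 0.12). Mgp, an inhibitor of calcification, rose from 912 and 1096 CPM to 2212 and 2891 CPM and had the second largest gain in TPM after Eef1a1. Thy1, the surface antigen whose loss marks early reprogramming, had 448 and 111 CPM before and 222 and 230 CPM after, and the stages overlapped (edgeR adjusted p = 0.722). The fibronectin gene Fn1 fell from 7858 and 7430 CPM to 3146 and 4279 CPM. Spp1, the secreted bone protein osteopontin, rose from 274 and 426 CPM to 1201 and 1511 CPM.

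Among 26 genes of contraction and the TGF-beta response 19 fell and 1 rose (2 rose without MEF_fl replicate 1). The smooth muscle calponin Cnn1 fell from 22.6 and 17.6 CPM to 1.21 and 2.06 CPM (-3.60 ± 0.36), and Tgfbi, a matrix protein named for its induction by TGF-beta, rose from 285 and 254 CPM to 716 and 647 CPM. Genes of the insulin-like growth factor axis fell in 6 of 13 cases (46.2%) and rose in 3 (23.1%), against 26.3% and 25.7% of all genes. The imprinted fetal growth factor Igf2 fell from 7012 and 7778 CPM to 796 and 1118 CPM (-2.95 ± 0.33), Igf1 from 243 and 202 CPM to 37.1 and 31.4 CPM, and the binding protein Igfbp5 from 4288 and 4831 CPM to 335 and 356 CPM. Their receptor gene Igf1r moved the other way, from 116 and 114 CPM to 219 and 235 CPM (0.98 ± 0.08).

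Of 19 imprinted genes tested 11 fell (57.9%) and 3 rose (15.8%), against 26.3% and 25.7% of all genes. Dlk1, a Notch-like surface protein, had 1131 and 297 CPM in MEF_fl and 22.1 and 10.9 CPM on day 4 (-5.45 ± 0.98, and -4.19 to -6.11 when either MEF_fl library or Day4_fl_DMSO replicate 1 was left out), and the zinc finger gene Zim1 fell from 32.7 and 31.3 CPM to 7.18 and 8.21 CPM. The 3 that rose shrank to 1 without MEF_fl replicate 2 and to 1 without Day4_fl_DMSO replicate 1.

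**Figure D2:**
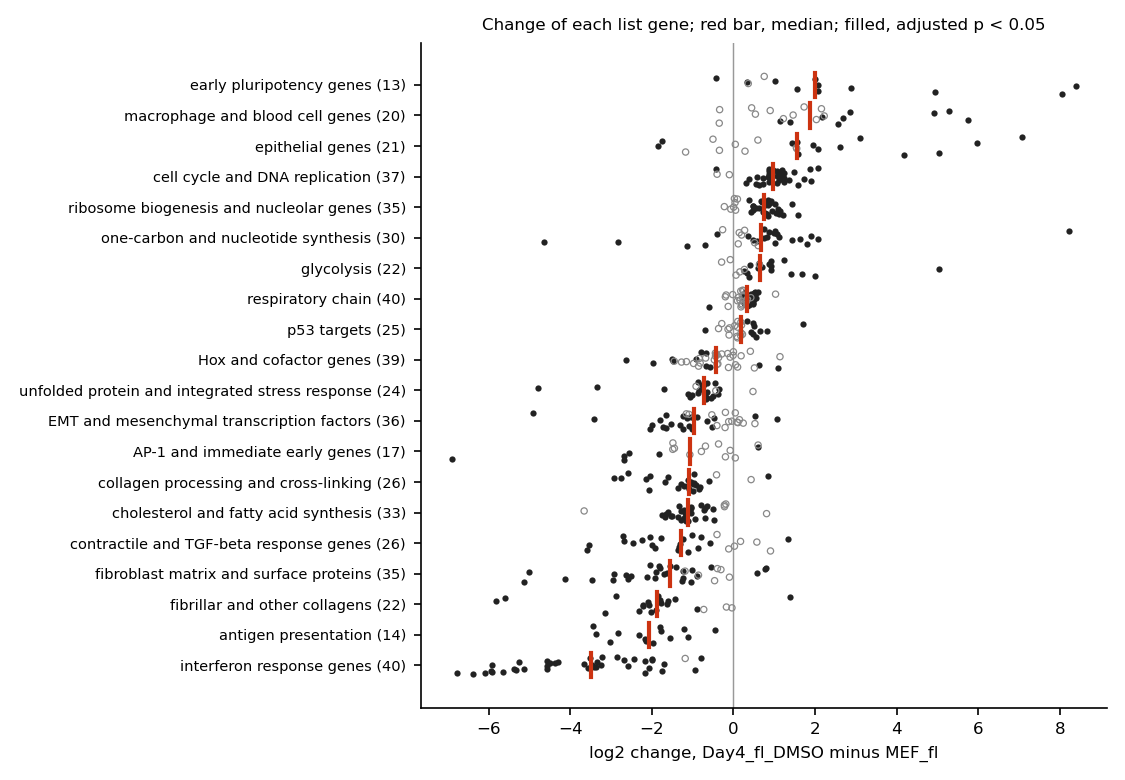
Log2 change of each gene in 20 lists, day 4 minus MEF, ordered by the list median (red bar), with filled points for genes that passed the test and open points for those that did not; the number tested stands in parentheses. Interferon response genes have the lowest median, -3.49, and early pluripotency genes the highest, 2.00.

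Interferon response genes fell further than any other list shown. Of 40 tested 39 fell and 0 rose, all 40 changes were negative, and 37 fell by more than 2-fold. The median was -3.49, and -3.44 and -3.56 within replicates 1 and 2. Ifit3 and Ifit1, which bind viral RNA, were at 956 and 1009 CPM and at 677 and 861 CPM in MEF_fl, among the well expressed genes of these cells. On day 4 they had 8.04 and 9.90 CPM and 7.18 and 11.1 CPM (-6.77 ± 0.30 and -6.38 ± 0.42, edgeR adjusted p = 7.56e-07 and 1.05e-05). Isg15, a ubiquitin-like modifier, fell from 540 and 625 CPM to 7.18 and 9.67 CPM, and Oasl2 from 469 and 443 CPM to 7.18 and 7.61 CPM. The list as a whole held 0.993% and 1.15% of the TPM total in MEF_fl and 0.0714% and 0.0770% on day 4. Reads of near-identical copies are divided by estimate, so Ifit3 and its neighbour I830012O16Rik (282 and 326 CPM to 2.93 and 3.67 CPM) are uncertain as single genes.

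The promoters of Ifit3 and Ifit1 are shown because they hold the element through which interferon acts, GAAANNGAAA (the interferon-stimulated response element, searched on both strands), here in capitals and read on the opposite strand. Both 120-base stretches are from RefSeq, build GRCm38.p6, + strand, chr19:34583335-34583454 and chr19:34640739-34640858. Each holds the element 2 times.

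Ifit3: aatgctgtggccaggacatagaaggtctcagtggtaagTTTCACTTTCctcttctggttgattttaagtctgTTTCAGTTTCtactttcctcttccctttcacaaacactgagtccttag

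Ifit1: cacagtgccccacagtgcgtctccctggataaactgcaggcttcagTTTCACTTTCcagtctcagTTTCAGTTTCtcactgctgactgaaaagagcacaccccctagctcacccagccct

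Of the 40 listed interferon genes 30 had a promoter in the RefSeq table, and 14 of these (46.7%) held the element within 250 bases before to 50 after a start. Among all 27025 genes in that table the share was 3.99%. A match is a description of the letters and not evidence of binding.

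The transcription factors of the pathway fell as well. Stat2 went from 446 and 469 CPM to 45.6 and 42.3 CPM, and its partner Irf9 from 158 and 160 CPM to 36.5 and 39.1 CPM. Irf7, which amplifies interferon transcription, fell from 246 and 294 CPM to 7.76 and 7.66 CPM. Bst2, a membrane protein that tethers virus particles, fell from 679 and 754 CPM to 75.5 and 74.9 CPM, and Gbp2, an interferon-induced GTPase, from 125 and 118 CPM to 5.34 and 5.32 CPM. Zbp1, a sensor of left-handed nucleic acid, was the gene not called, with 36.0 and 19.9 CPM before and 12.5 and 12.1 CPM after (edgeR adjusted p = 0.0579).

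Among 15 ligands, receptors and upstream sensors tested, 5 fell (33.3%) and 3 rose (20.0%), against 26.3% and 25.7% of all genes. With the replicate block 8 fell and 5 rose. The median was -0.18. The receptor gene Ifnar1 had 161 and 171 CPM before and 140 and 153 CPM after (-0.18 ± 0.084, not called), and the kinase gene Jak1 had 430 and 452 CPM before and 454 and 476 CPM after (0.08 ± 0.076, not called). Ifngr2, a subunit of the interferon gamma receptor, fell from 86.8 and 94.4 CPM to 31.3 and 33.3 CPM, and Tlr3, a sensor of double-stranded RNA, from 36.9 and 38.2 CPM to 4.02 and 3.62 CPM. The adaptors Tmem173 (STING) and Mavs rose, from 40.3 and 25.2 CPM to 101 and 117 CPM and from 32.5 and 36.9 CPM to 77.9 and 85.5 CPM, and so did the factor Irf3, by 0.54 ± 0.10. Ifnb1, interferon beta itself, had 4 and 1 counts in MEF_fl and 0 and 0 on day 4.

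Antigen presentation genes, many of which interferon induces, fell in 14 of 14 cases, with a median of -2.06. B2m, the light chain of MHC class I, fell from 1368 and 1453 CPM to 359 and 360 CPM (-1.97 ± 0.089, edgeR adjusted p = 3.06e-07). The class I heavy chain H2-K1, which shares reads with related genes and is uncertain for that reason, fell from 220 and 192 CPM to 26.5 and 24.4 CPM. Nlrc5, the transactivator of class I genes, fell from 20.6 and 21.7 CPM to 2.01 and 1.88 CPM, and the immunoproteasome subunit Psmb8 from 48.1 and 39.4 CPM to 5.00 and 3.53 CPM. The 4 genes were named for large changes in the list or in TPM, so their lack of overlap between the stages is not separate support.

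Of 30 secreted inflammatory genes tested 8 rose (26.7%) and 9 fell (30.0%), shares near the 25.7% and 26.3% of all genes, and 5 rose without Day4_fl_DMSO replicate 1. The interferon-induced chemokine Cxcl10 fell from 22.5 and 12.9 CPM to 0.46 and 0.367 CPM, and Ccl5 from 5.51 and 4.73 CPM to 0.287 and 0.275 CPM. The matrix protease Mmp3 rose from 26 and 53.9 CPM to 219 and 239 CPM (2.52 ± 0.33, and 3.14 without MEF_fl replicate 2), and the iron carrier Lcn2 from 0.0593 and 0.303 CPM to 4.71 and 5.78 CPM (4.81, and 4.08 or 6.31 without MEF_fl replicate 1 or 2).

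AP-1 genes and other immediate early genes, the first to respond to growth factors and stress, differed between the replicates. Of 17 tested 5 fell (29.4%, against 26.3% of all genes) and 1 rose, and 9 fell with the replicate block. The rise was lost without either MEF_fl library and without Day4_fl_DMSO replicate 2. Jun fell from 483 and 482 CPM to 79.7 and 71.2 CPM (-2.68 ± 0.13, edgeR adjusted p = 4.72e-07). Fosb fell from 421 and 505 CPM to 2.36 and 5.18 CPM (-6.91 ± 0.65, and -7.60 without Day4_fl_DMSO replicate 2). Fos had 866 and 980 CPM before and 64.3 and 222 CPM after, with edgeR adjusted p = 0.0274. Its call was lost without MEF_fl replicate 1 or 2, at -2.77 and -2.59, and without Day4_fl_DMSO replicate 1, at -2.05; without Day4_fl_DMSO replicate 2 it was -3.83 and called. Egr1 had 936 and 893 CPM before and 259 and 801 CPM after and was not called. Replicate 2 kept more of these transcripts on day 4: the list sum was 4487 and 4771 CPM in MEF_fl and 1181 and 2399 CPM on day 4.

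**Figure D3:**
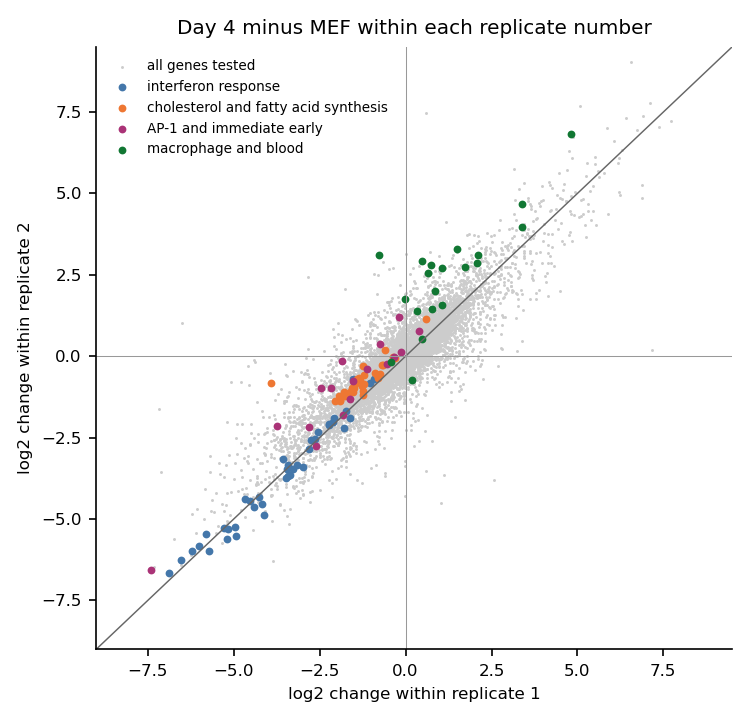
Log2 change from MEF to day 4 within replicate 1 (horizontal) and within replicate 2 (vertical), 1 point per gene, grey for all 13936 genes and coloured for 4 lists; the line marks equal change. Interferon genes lie near the line, with medians of -3.44 and -3.56, and macrophage and blood genes lie above it, with medians of 0.81 and 2.73.

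Genes of cell division rose together. Of 37 tested 34 rose and 1 fell, with a median of 0.96, and 18 rose by more than 2-fold. Mybl2, a cell cycle transcription factor, rose from 8.24 and 5.22 CPM to 29.0 and 27.5 CPM (2.07 ± 0.22). Mcm10 and Mcm7, genes of DNA replication, rose from 7.77 and 6.13 CPM to 27.2 and 24.6 CPM and from 52.2 and 56.7 CPM to 127 and 130 CPM. The proliferation marker Mki67 rose from 146 and 137 CPM to 400 and 447 CPM (1.58 ± 0.12). E2f1 was the gene that fell, from 38.1 and 41.4 CPM to 31.1 and 28.3 CPM (-0.42 ± 0.12), and its call was lost without MEF_fl replicate 2 (-0.36) and without Day4_fl_DMSO replicate 2 (-0.33).

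Promoters of E2f2 and Cdt1 are shown because they are the called genes of that list with the largest changes that hold an E2F site. The site was searched as TTTCCCGC, TTTCGCGC, TTTGCCGC or TTTGGCGC on both strands, and is in capitals. The 30-base stretches, from RefSeq build GRCm38.p6, lie just after the start on the + strand, at chr4:136172294-136172323 and chr8:122568035-122568064.

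E2f2: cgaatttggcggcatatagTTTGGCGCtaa

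Cdt1: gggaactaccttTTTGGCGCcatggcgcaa

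E2f2 rose from 1.48 and 1.70 CPM to 6.09 and 5.59 CPM, and Cdt1, which licenses replication origins, from 8.60 and 9.65 CPM to 25.7 and 21.0 CPM. Of 37 listed genes 30 had a promoter there, and 9 of these (30.0%) held an E2F site, against 2.60% of all genes.

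Brakes of the cell cycle were listed with the D cyclins and their partners, which drive it, so the counts mix both kinds. Of 15 inhibitors, D cyclins and their partners 5 rose and 1 fell (6 and 3 with the replicate block, and 3 rose without Day4_fl_DMSO replicate 1). The 5 and 1 were 33.3% and 6.67% of the list, against 25.7% and 26.3% of all genes. Among the drivers, the kinase gene Cdk6 rose (0.95, and 0.71 without MEF_fl replicate 2). The cyclin gene Ccnd2 rose too (0.82), while Ccnd3 was the gene that fell (-0.54). Among the brakes, Cdkn2a, the locus of p16 and p19Arf, rose from 45.8 and 55.9 CPM to 86.5 and 106 CPM (0.92 ± 0.16). These 2 are senescence proteins. The retinoblastoma gene Rb1 rose from 29.5 and 32.9 CPM to 115 and 110 CPM (1.85 ± 0.10). Cdkn1a (p21) had 351 and 394 CPM before and 385 and 413 CPM after and was not called (edgeR adjusted p = 0.408). Of 25 p53 targets 9 rose (36.0%) and 1 fell (4.0%), against 25.7% and 26.3% of all genes. Fewer rose without Day4_fl_DMSO replicate 1, and the fall was lost without that library or without MEF_fl replicate 2. Among those that rose were the death receptor Fas, from 28.5 and 27.9 CPM to 50.2 and 49.5 CPM, and Perp, from 22.5 and 23.8 CPM to 57.2 and 93.2 CPM.

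Growth genes rose broadly. Of 35 ribosome biogenesis genes 28 rose and 0 fell, with a median of 0.76. The nucleolar chaperone Npm1 rose from 636 and 560 CPM to 1928 and 1638 CPM (1.58 ± 0.13, edgeR adjusted p = 9.56e-06), the pseudouridine synthase Dkc1 from 28.3 and 26.4 CPM to 75.0 and 73.6 CPM, and the methyltransferase Fbl from 63.8 and 50.7 CPM to 138 and 128 CPM. Of 77 cytosolic ribosomal protein genes, a list added after the values had been seen, 70 rose and 0 fell, with a median of 0.94. They held 12.7% and 12.3% of the TPM total in MEF_fl and 23.4% and 21.3% on day 4. Rps16 rose from 378 and 357 CPM to 1068 and 932 CPM, and Eef1a1, the elongation factor, from 9122 and 8257 CPM to 16332 and 14778 CPM. These genes have many processed copies in the genome, so single values are uncertain.

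**Figure D4:**
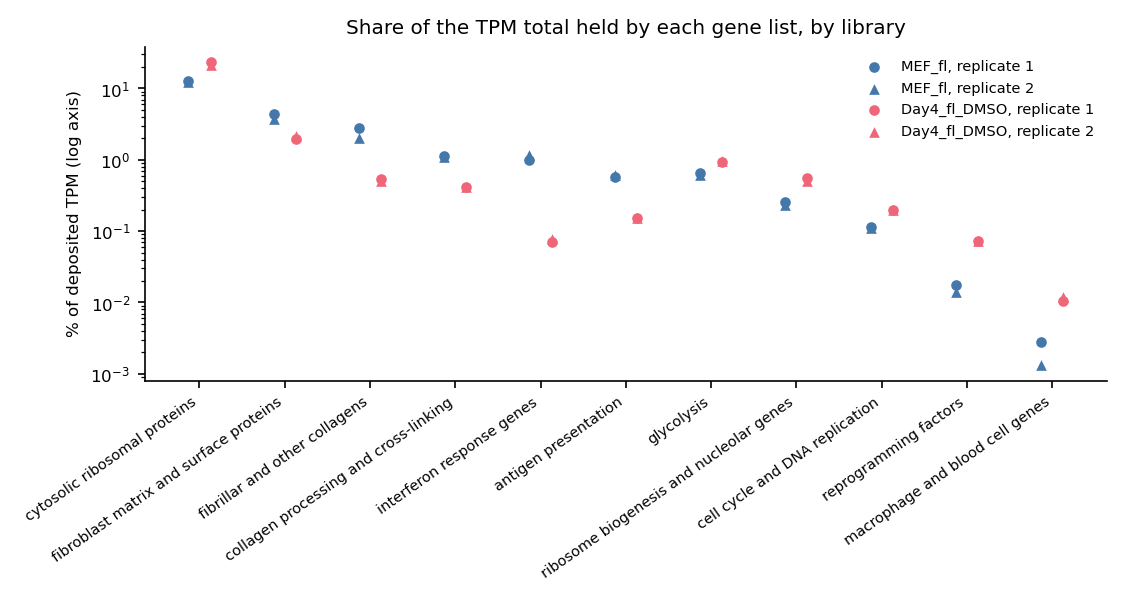
Percent of the deposited TPM total held by each of 11 gene lists, on a log axis, 1 point per library, blue for MEF_fl and red for Day4_fl_DMSO. Ribosomal proteins go from 12.7% and 12.3% to 23.4% and 21.3%, and collagens from 2.80% and 2.04% to 0.543% and 0.509%.

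Nucleotide and folate metabolism showed opposite movements inside 1 list of 30 genes, of which 18 rose and 5 fell (3 fell without MEF_fl replicate 1 or without Day4_fl_DMSO replicate 2). The purine enzyme Paics rose from 147 and 156 CPM to 650 and 625 CPM (2.07 ± 0.092, edgeR adjusted p = 2.70e-07). The mitochondrial folate enzymes Mthfd2 and Aldh1l2 fell, from 68.9 and 37.9 CPM to 7.81 and 7.11 CPM and from 169 and 70.8 CPM to 3.85 and 5.59 CPM. Aldh1l2 had a change of -4.65, and of -3.90 without MEF_fl replicate 1.

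Of 22 glycolysis genes 16 rose and 0 fell, with a median of 0.64. The neuronal aldolase Aldoc rose from 2.73 and 1.52 CPM to 86.0 and 53.8 CPM (5.03 ± 0.36, edgeR adjusted p = 9.55e-06), the hexokinase Hk2 from 18.7 and 16.4 CPM to 58.3 and 54.6 CPM, and the isomerase Gpi1 from 232 and 214 CPM to 598 and 582 CPM. Respiratory chain genes moved less: of 40 tested 21 rose and 1 fell, 0 by over 2-fold, with a median of 0.32, and 12 rose without Day4_fl_DMSO replicate 1 and 0 fell without replicate 2. Atp5c1, a subunit of ATP synthase, went from 154 and 146 CPM to 236 and 217 CPM.

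Cholesterol and fatty acid synthesis fell. Of 33 genes tested 28 fell and 0 rose (1 rose without MEF_fl replicate 1), with a median of -1.12. The sterol enzyme Sqle fell from 210 and 148 CPM to 55.8 and 56.2 CPM (-1.67 ± 0.23), and the fatty acid synthase Fasn from 451 and 398 CPM to 197 and 219 CPM. The MEF libraries differed more than the day 4 libraries, with median changes of -1.34 and -0.82 within replicates 1 and 2. In the test over all 12 libraries 27 of the 33 changes differed between the replicate numbers. The medium differed between the stages, and its part in this was not tested. The sterol regulatory element, searched as TCACNCCAC on both strands, was in the promoter of 1 of 23 listed genes with a promoter in the table, Hmgcs1, which has no row in the count tables under that name. That is 4.35% of the listed genes, against 1.44% of all genes.

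Among 24 genes of the unfolded protein and amino acid responses 21 fell and 0 rose. Chac1 and Ddit3, targets of the stress factor ATF4, fell from 21.2 and 12.7 CPM to 1.61 and 1.70 CPM and from 50.8 and 34.0 CPM to 13.2 and 12.8 CPM. The endoplasmic reticulum chaperone Hspa5 fell from 965 and 855 CPM to 574 and 571 CPM (-0.67 ± 0.091).

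Of 16 DNA methylation and demethylation genes 8 rose and 2 fell (1 fell without MEF_fl replicate 1 or either day 4 library). Uhrf1, which guides maintenance methylation, rose from 35.7 and 36.5 CPM to 98.0 and 83.4 CPM (1.33 ± 0.096), and the maintenance enzyme Dnmt1 from 114 and 114 CPM to 167 and 164 CPM. Of 25 Polycomb and demethylase genes 8 rose (32.0%) and 7 fell (28.0%), shares near those of all genes (25.7% and 26.3%), with a median of 0.02 (3 fell without MEF_fl replicate 2, and 2 fell with scaling to total counts). Cbx7, the Polycomb chromodomain protein typical of stem cells, rose from 4.21 and 3.16 CPM to 23.8 and 19.2 CPM (2.54 ± 0.20), while Cbx6 fell from 392 and 385 CPM to 237 and 255 CPM.

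In the DOT1L complex 4 of 12 genes rose (33.3%) and 2 fell (16.7%), against 25.7% and 26.3% of all genes. Mllt3 (AF9) rose from 24.4 and 36.1 CPM to 114 and 99.9 CPM (1.82 ± 0.20), and Mllt10, the floxed gene, went from 43.1 and 45.4 CPM to 61.4 and 55.3 CPM (0.40 ± 0.082, edgeR adjusted p = 0.00274). Dot1l had 56.6 and 53.5 CPM before and 59.9 and 52.7 CPM after and was not called. Of 39 Hox and cofactor genes 9 fell (23.1%, against 26.3% of all genes) and 2 rose, and 21 fell and 3 rose with the replicate block, while 1 fell without Day4_fl_DMSO replicate 2 and 5 fell without MEF_fl replicate 1, and 1 rose without any 1 of the 4. Hoxb9 had 30.3 and 13.7 CPM before and 4.71 and 2.38 CPM after (-2.64 ± 0.63, and -2.20 and not called without Day4_fl_DMSO replicate 2, or -1.96 without MEF_fl replicate 1).

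Markers of other cell types moved too. Of 20 macrophage and blood cell genes tested 9 rose (45.0%) and 0 fell, against 25.7% and 26.3% of all genes. The median was 1.88. More rose without MEF_fl replicate 1 and fewer without MEF_fl replicate 2. The list sum was 18.7 and 9.75 CPM in MEF_fl and 81.2 and 91.8 CPM on day 4, of which Laptm5, a lysosomal protein of blood cells, made 1.30 and 0.303 CPM before and 39.5 and 47.7 CPM after (5.74 ± 0.47, and 7.13 or 5.06 without MEF_fl replicate 1 or 2). Emr1 (F4/80), the macrophage surface marker, had 0.534 and 0.121 CPM before and 1.72 and 2.20 CPM after, and lost its call without MEF_fl replicate 2 (1.87) and without Day4_fl_DMSO replicate 2 (2.38), and was at 3.94 without MEF_fl replicate 1. Ptprc (CD45) had 2 and 1 counts before and 2 and 11 after, and Csf1r, the receptor of macrophage growth factor, had 1.66 and 1.21 CPM before and 1.21 and 1.05 CPM after and was not called. The list held at most 0.0118% of the TPM total in any library, and its part in the rises above was not tested.

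Of 17 cartilage and bone genes 12 fell and 3 rose (7 fell without MEF_fl replicate 2). Acan, the cartilage proteoglycan, had 81 counts in MEF_fl and 1 on day 4, and Alpl, the alkaline phosphatase that stem cells and bone share, rose from 2.61 and 2.73 CPM to 14.6 and 9.95 CPM. The tendon marker Tnmd fell from 43.4 and 14.7 CPM to 0.287 and 0.183 CPM (-6.93 ± 0.85, and -5.95 without MEF_fl replicate 1). Of 11 muscle genes 4 fell (36.4%) and 0 rose, and of 9 neural genes 4 fell (44.4%) and 0 rose. Fewer neural genes fell without Day4_fl_DMSO replicate 2. Of 7 adipocyte genes 2 fell (28.6%), and 5 with the replicate block, but these calls were lost when either day 4 library was left out. The share that fell among all genes was 26.3%. Of 7 germline genes that DNA methylation silences 3 rose (42.9%) and 0 fell, against 25.7% and 26.3% of all genes. These rises were lost without MEF_fl replicate 2 or Day4_fl_DMSO replicate 2. Of 6 endothelial genes 1 rose (16.7%) and 2 fell (33.3%), against 25.7% and 26.3% of all genes. The fall of Flt1 was not called when MEF_fl replicate 1 or either day 4 library was left out. Tek, the angiopoietin receptor of endothelium, rose from 14.5 and 15.8 CPM to 95.7 and 118 CPM (2.82 ± 0.25), while Kdr, the main endothelial receptor of vascular growth factor, fell from 4.8 and 2.91 CPM to 0.287 and 0.413 CPM, and Pecam1, Tie1, Emcn, Esam, Vwf and Cldn5 were below the filter.

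Whether the 4 days did the same under both replicate numbers was tested with a term for the replicate number within each stage. Each term was shared by all groups of its stage, AF10-deleted and SGC0946-treated cells included. The difference and its error therefore cover all 12 libraries, and the fl pairs were not tested alone. Atf3, for example, had changes of -2.83 and -2.17 within the fl replicates 1 and 2, and a tested difference of 1.24. The change differed between replicate numbers for 2303 genes (16.5%), in 493 of them by more than 2-fold. It was more positive in replicate 2 for 1385 and in replicate 1 for 918. Of the 2303, 516 had opposite signs within the 2 fl pairs. Laptm5 was among the 2303 with changes of 4.8 and 6.83 within replicates 1 and 2, and Eln with -4.10 and -2.35. Differences were found for 7 of 40 interferon genes and 0 of 14 antigen presentation genes, against 20 of 35 fibroblast matrix and surface genes and 14 of 17 AP-1 and immediate early genes.

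The same 4 days in AF10-deleted cells gave list medians of the same sign except for the Polycomb list (0.02 in fl and -0.04 in AF10-deleted cells) and the DOT1L complex (0.03 and -0.05). The difference between the genotypes was tested for each gene. The fit with group terms alone called 0 of 13936 genes (0%), with 507 at an unadjusted p under 0.05, and DESeq2 called 2. A fit used for this question after values were seen, with the replicate number as a block within each stage, called 161 genes (1.16%). Of these 130 had a more positive change in AF10-deleted cells and 31 a more negative change. Of the interferon list 12 of 40 and of the antigen presentation list 6 of 14 had a less negative change in AF10-deleted cells in that fit, and the medians were -3.18 and -1.64 there, against -3.49 and -2.06 in fl cells. Bst2 fell by 2.38 in AF10-deleted cells and by 3.25 in fl cells (difference 0.87 ± 0.099, edgeR adjusted p = 1.81e-05 in that fit and 0.588 with group terms alone). Mt1, a metal-binding protein, had 61.1 and 121 CPM in MEF_fl and 232 and 135 CPM on day 4. That change was 1.92 and 0.16 within replicates 1 and 2 and was not called (edgeR adjusted p = 0.094). The genotype difference of Mt1 was -1.86 ± 0.12 with the block per stage (edgeR adjusted p = 1.33e-08), and it was not called with group terms alone. Every Cre-treated library came from floxed cells, so effects of the deletion and of the Cre virus cannot be told apart.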

How the data were processed

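RNA was sequenced from TruSeq V2 libraries, per the labels' protocols. The deposited tables give RSEM expected counts and TPM per gene, made by the authors with Bowtie and RSEM on build mm9, per the submitters' processing notes; versions are not given in the sources used here. The expected counts were joined by transcript identifiers and rounded to whole numbers. The 13936 of 20325 genes kept by filterByExpr over all 12 libraries were fitted in edgeR 4.0.16 (R 4.3.3) with TMM factors, a term per group and the robust quasi-likelihood F test, with Benjamini-Hochberg adjustment over all genes. The fit was also run on simulated counts in which few genes changed and no replicate effect was put in. That run does not cover data with as many changes, or with the replicate differences, found here. Same-numbered libraries deviated together in all 15 pairs of groups (correlations of 0.286 to 0.737, and 0.318 for MEF_fl with Day4_fl_DMSO), so the replicate number was also fitted as a block. CPM and list sums were computed from the counts, and shares from the deposited TPM. Counting intervals are exact, at 95%, and cover counting error only. The alternatives were DESeq2 1.42.0, 3 other scalings, 2 other filters, the 4 libraries alone, 2 block fits and leaving out each library. Genes were named by rule: the 12 largest called rises and falls, the 8 largest called gains and losses in TPM, the factors and markers, up to 4 called members of each list with the largest change and up to 2 against its direction, the 5 lowest adjusted p of each difference test, and genes whose promoter is printed. The largest rises and falls had to have a mean of 10 CPM or more in the higher group and no overlap between the stages. The text prints only some of the named genes, and 33 of the 242 were added by name after their values were seen. The genotype test with group terms alone called 0 genes. Its 5 genes were therefore taken from the fit with the block per stage, a choice made after values were seen. The members of the ribosomal protein list also entered after values were seen. Neither set is among the 33. The members and lists were chosen with earlier results of these data known. Promoters are 300 bases from RefSeq, GRCm38.p6. Some members of the lists are counted but not reported by name here.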

Additional observations from a re-analysis of the deposited data

Results flagged for a closer look

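The change over the 4 days differed between the replicate numbers for 2303 genes in edgeR's test with the replicate number as a term in each stage. That term was shared by all groups of a stage, so the differences are over all 12 libraries and not over the fl libraries alone. The 5 genes with the lowest adjusted p in that test are given with their difference (replicate 2 minus replicate 1, log2). Fxyd6, a regulator of the sodium pump, had 40.7 and 15.5 CPM in MEF_fl and 63.8 and 111 CPM on day 4, and the difference was 2.24. For Agtr2, an angiotensin receptor, it was 1.98, with 745 and 274 CPM before and 53.4 and 71.5 CPM after. Pi15, a secreted protease inhibitor, had 137 and 62.6 CPM before and 49.9 and 88.3 CPM after (1.92). F3, tissue factor, had 148 and 42.4 CPM before and 51.0 and 52.5 CPM after (2.05), and the surface antigen Thy1 448 and 111 CPM before and 222 and 230 CPM after (1.88). In these 5 genes MEF_fl replicate 1 was above MEF_fl replicate 2.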

How the results depend on the processing

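Rises and falls stayed within 1.5 times 3588 and 3659 under all 13 alternatives: 2664 to 3065 rose and 2675 to 3211 fell on leaving out 1 library, and 4728 and 4774 with the replicate block per stage. That block raised the calls between genotypes from 0 to 130 (more positive when deleted) and 31 (more negative), and DESeq2 gave 2 more positive. The change of Klf4 turned to -0.01 without MEF_fl replicate 2 (leaving out each library gave -0.01 to 0.32). Dot1l gave -0.06 to 0.14, with -0.01 without MEF_fl replicate 2 and -0.06 without Day4_fl_DMSO replicate 1. Without MEF_fl replicate 1, Pi15 turned to 0.14 (range -0.99 to 0.14), F3 to 0.29 (-1.51 to 0.29) and Thy1 to 1.02 (-0.99 to 1.02). Thy1 was at 0.01 with the block per stage. Thy1 and Dot1l were not called in these fits; with the block per stage Klf4 (0.16, edgeR adjusted p = 0.047), Pi15 (-0.48, 1.14e-06) and F3 (-0.60, 1.88e-07) were. The cause was not tested. Of 227 called named genes, 39 lost the call without some 1 library, and 0 reversed. With the replicate block 0 of 242 named genes lost a call, and Ifnar1 (-0.18) and Zeb1 (-0.21) gained one. With 2 libraries per group, genes under a few counts have wide intervals.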
